A study of Homo sapiens with 12 samples.

Results

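The comparison set oncogenic HRAS against its empty-vector control in IMR90 cells, a line of normal human fetal lung fibroblasts, and was described across gene classes other than secreted factors and the cell cycle. Its members were the 6 libraries that the labels name CT1 to CT3 and RAS1 to RAS3, of 12 libraries in the series. The 3 control libraries came from cells infected with the empty retroviral vector, pBABE-Control. The 3 RAS libraries came from cells infected with the same vector carrying a constitutively active HRAS, pBABE-HRASG12V. All 6 shared culture at 2% oxygen and selection with puromycin, for which the labels and the study's methods give different doses and times. The vector drove HRAS in the whole infected culture of 1 cell line, and part of the study's text treats the libraries as technical replicates of 1 experiment, so the p-values measure the spread between these libraries. The libraries of RAS cells with a DOT1L short hairpin and of cells overexpressing DOT1L were used here only in an alternative fit.

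HRAS is a small GTPase that switches on kinase cascades below growth factor receptors. When a normal fibroblast carries a version that cannot switch off, it stops dividing after a burst of signalling, a state called oncogene-induced senescence, in which the cell enlarges, secretes cytokines and remodels its chromatin. Which receptors, channels, carriers and transcription factors such a cell makes sets what it can sense, take up and respond to, and those classes are the subject here. In bulk RNA, fewer cells of a type and less RNA per cell cannot be told apart.

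The 6 libraries held 17354579 to 19181783 counts each, and the first principal component, 78.3% of the variance, separated control from RAS. HRAS itself was measured at 80.5, 83.9 and 86.0 CPM in the control libraries and 478, 496 and 490 CPM in the RAS libraries. The groups did not overlap, and the reads include those of the introduced copy. The mean rose from 83.5 ± 2.76 to 488 ± 8.80 CPM (SD, n = 3; log2 change 2.55 with SE 0.046, edgeR adjusted p = 2.52e-30; 1.88 with a GC offset described below), where CPM is the count scaled to library size after TMM normalisation. Mitochondrial transcripts took 2.31 to 2.54% of the counts in control and 3.64 to 3.87% in RAS, and their part in the results was not tested. Of 22 fibroblast markers 21 were tested, and 4 were called higher and 13 lower, against 31.9% and 32.0% of all genes. With the GC offset 2 were higher and 15 lower, against 26.5% and 27.3%. COL1A1 stood at 9170 CPM in control and 7550 CPM in RAS and VIM at 1720 and 1810 CPM, and TBX4 was at 0 throughout. The summed level of the list was 32300 to 32700 CPM in control and 23200 to 23800 CPM in RAS. Of 11 endothelial markers with an identifier, the summed level was 65.7 to 72.7 CPM in control and 121 to 123 CPM in RAS, with TEK, an angiopoietin receptor, holding 65.1 CPM in control and 59.3 CPM in RAS. Of the 6 tested, 5 were called higher in RAS and 0 lower, without and with the GC offset. The shares of all genes were 31.9% and 32.0% without it, and 26.5% and 27.3% with it. TIE1, ROBO4 and ESAM were among those higher, and TIE1, with 5, 18 and 0 counts in control, was tested only with the help of the RAS libraries. The defining endothelial genes CDH5, ERG and EMCN were at 0 in all 6 libraries. Epithelial markers summed to 256 to 276 CPM in control and 116 to 126 CPM in RAS, most of it from KRT8, KRT18 and KRT19, and SFTPC, SCGB1A1, NKX2-1 and ESRP1 were at 0 throughout. Haematopoietic markers summed to 3.51 to 4.19 CPM in control and 8.93 to 10.3 CPM in RAS, neural markers to 5.36 to 5.71 and 7.99 to 12.2 CPM, and smooth muscle and pericyte markers to 4480 to 4520 and 2170 to 2250 CPM.

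Of 13554 genes tested by edgeR's quasi-likelihood test, 4327 (31.9%) were higher in RAS and 4343 (32.0%) lower at an adjusted p under 0.05. The split rested on the scaling: with library size alone in place of TMM, 3256 were higher and 5572 lower. The change followed the GC content of the transcript. Among the decile of genes with the lowest GC, up to 38.6%, the median log2 change was −0.62, with 5.89% of genes higher and 65.7% lower. Among the decile with the highest GC, from 61.1%, it was 0.59, with 64.3% higher and 6.42% lower. Spearman's rho between GC and log2 change was 0.50 over 13236 genes, which are not independent replicates, and it was 0.36, 0.49, 0.59 and 0.56 in quartiles of rising mean CPM. The libraries of a group differed little from each other in this trend. Relative to the average of the 6, the median of the GC-rich decile minus that of the GC-poor decile was −0.60 ± 0.035 in control and 0.59 ± 0.014 in RAS (log2, SD, n = 3), where the centring on that average fixes the opposite signs. No label gives a batch, so whether the trend came from the cells or from library preparation cannot be told apart.

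**Figure D1:**
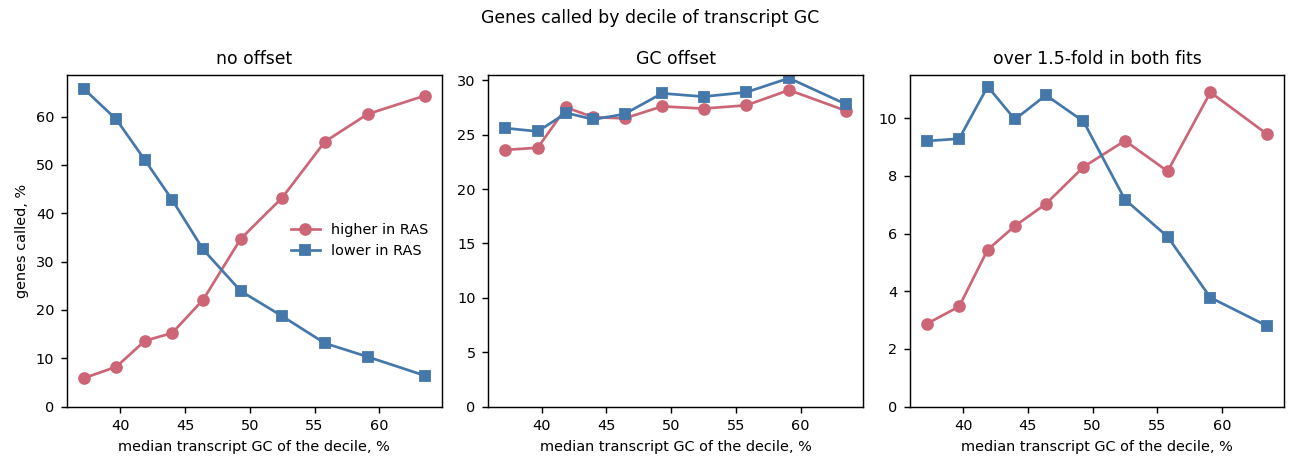
Percentage of genes called higher (circles) or lower (squares) in RAS against the median transcript GC of each decile of genes, for the fit without an offset, the fit with the GC offset, and the genes over 1.5-fold in both fits. Without the offset the share called higher climbs from 5.89 to 64.3% as the share called lower drops from 65.7 to 6.42%, and with the offset both shares stay between 23.6 and 30.2%.

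For this reason each class was read in 2 fits, without an offset and with an offset for each library that removed its own GC trend. With the offset, 3590 genes (26.5%) were higher and 3698 (27.3%) lower, rho dropped to 0.015, 5504 genes were called the same way in both fits and 439 were called in opposite directions. A stricter count took the genes that changed by more than 1.5-fold at an adjusted p under 0.05 in the same direction in both fits. It held 965 genes higher (7.12%) and 1069 lower (7.89%). The stricter count still leaned on GC, since it took in 2.87% of the GC-poorest decile as higher and 9.21% as lower, against 9.44% and 2.79% of the GC-richest decile. Of 3734 genes with an identifier in the 51 classes, 835 had no count in these libraries, 801 fell below the filter on low counts and 2098 were tested. Of those tested, 43 had under 10 counts in every control library and 42 in every RAS library, so that they passed the filter only through the other group. Members with under 10 counts in only some libraries of a group are not in these numbers. TIE1, with 5, 18 and 0 counts in the control libraries, also needed the RAS libraries to pass. By the stricter count 237 of the 2098 (11.3%) were higher and 211 (10.1%) lower. Unless stated otherwise, a count of class members below is by this stricter count, to be read against 7.12% higher and 7.89% lower. The class lists were set with earlier results of these data known, so a share above these can be partly built in. Such shares are descriptions of the listed genes. Class members named below for their large rises and falls were chosen among genes whose groups do not overlap. Statements that their groups were apart follow from that choice. A change given without its offset value can also differ in size with the offset.

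Transcript GC and promoter GC behaved differently. Over the 10329 tested genes with a RefSeq promoter (GRCh38.p14, 250 bases before to 50 after the start), rho with the log2 change was 0.52 for transcript GC and 0.092 for promoter GC, and rho between both GC measures was 0.23. Promoters with few CpG dinucleotides were counted in the same genes, with no test. Of tested genes 12.4% had a promoter with 10 or fewer, beside 24.3% of the 688 genes higher by the stricter count and 18.7% of the 815 lower. The share was 44.6% of the 168 genes with a log2 change over 3 and 35.5% of the 62 under −3. Of all 27305 RefSeq promoters, which include those of genes not tested, it was 45.6%. The AP-1 motif TGANTCA, searched on both strands, was in 4.71% of tested promoters, 9.3% of the higher and 6.5% of the lower genes, and 14.9% of those with a log2 change over 3. The box TATAAA was in 5.48, 10.9, 6.5 and 17.9% of the same sets, and the cyclic AMP element TGACGTCA in 3.3, 1.6, 2.58 and 0.595%. These shares are descriptions and no motif match is a site. Promoters of 2 class members with large fitted rises and 2 with large fitted falls are shown so that their CpG content can be seen. LCE2D had no count in control, so its rise is known only as a lower bound and its rank among such genes is not. They belong to LCE1F (chr1:152774890-152775189, plus strand) and LCE2D (chr1:152663130-152663429, plus strand), which rose, and to OXTR (chr3:8769564-8769863, minus strand) and KCNE1 (chr21:34512161-34512460, minus strand), which fell. The capitals mark CpG dinucleotides, of which there are 6, 3, 11 and 7, against a median of 26 in tested promoters and 14 in all promoters. LCE2D alone of the 4 held a searched motif, TATAAA starting 30 bases before the start.
LCE1F: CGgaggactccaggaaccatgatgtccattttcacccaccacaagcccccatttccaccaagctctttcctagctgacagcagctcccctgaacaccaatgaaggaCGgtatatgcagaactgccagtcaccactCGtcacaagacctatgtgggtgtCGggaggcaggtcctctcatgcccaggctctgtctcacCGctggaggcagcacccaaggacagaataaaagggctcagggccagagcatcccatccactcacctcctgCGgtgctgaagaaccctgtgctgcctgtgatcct
LCE2D: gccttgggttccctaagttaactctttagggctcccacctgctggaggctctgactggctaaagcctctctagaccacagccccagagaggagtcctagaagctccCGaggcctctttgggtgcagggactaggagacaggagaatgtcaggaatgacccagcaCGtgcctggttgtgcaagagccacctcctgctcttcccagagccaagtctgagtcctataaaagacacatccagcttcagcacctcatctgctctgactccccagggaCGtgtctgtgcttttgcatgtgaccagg
OXTR: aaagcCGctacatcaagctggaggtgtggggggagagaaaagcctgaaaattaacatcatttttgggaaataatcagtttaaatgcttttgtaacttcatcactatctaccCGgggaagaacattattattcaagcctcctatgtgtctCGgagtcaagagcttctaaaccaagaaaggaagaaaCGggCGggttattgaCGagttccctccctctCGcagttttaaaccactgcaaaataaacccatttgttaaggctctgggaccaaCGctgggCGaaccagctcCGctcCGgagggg
KCNE1: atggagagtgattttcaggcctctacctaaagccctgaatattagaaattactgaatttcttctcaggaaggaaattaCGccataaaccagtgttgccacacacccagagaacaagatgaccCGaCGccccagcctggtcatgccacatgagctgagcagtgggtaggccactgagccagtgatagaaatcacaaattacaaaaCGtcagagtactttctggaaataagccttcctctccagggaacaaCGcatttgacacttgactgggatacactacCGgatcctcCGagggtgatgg

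Receptors for peptides and proteases changed in both directions. Of 17 tested G protein-coupled receptors (GPCRs) of this kind, 7 were higher and 4 lower. NTSR1, the neurotensin receptor (chromosome 20, 62708836 to 62762771 in GRCh38), was measured at 4.66, 4.24 and 5.22 CPM in the control libraries and 127, 121 and 132 CPM in the RAS libraries. It rose from a low level in every RAS library (log2 change 4.74 with SE 0.097, edgeR adjusted p = 7.41e-29; 4.11 with the GC offset). F2RL1, the protease-activated receptor PAR2 that trypsin-like proteases cleave, stood at 9.87, 11.2 and 11.7 CPM in the control libraries and 134, 128 and 120 CPM in the RAS libraries. Both groups were tight and far apart (log2 change 3.54 with SE 0.087, edgeR adjusted p = 1.01e-26; 3.75 with the offset). EDNRB, an endothelin receptor, rose from 2.28 ± 0.497 to 18.7 ± 1.60 CPM (SD, n = 3). OXTR, the oxytocin receptor, went the other way, with 17.6, 19.9 and 19.9 CPM in the control libraries and 0.232, 0 and 0.0619 CPM in the RAS libraries. Its transcript was close to the detection limit in RAS, with 5 counts over the 3 libraries (log2 change −7.50 with SE 0.358, edgeR adjusted p = 9.11e-19; −7.65 with the offset; −9.02 without RAS library 1). SSTR1, a somatostatin receptor, and F2RL2, the receptor PAR3, fell from 8.54 ± 1.09 to 1.84 ± 0.0623 CPM and from 6.17 ± 1.21 to 1.36 ± 0.548 CPM (SD, n = 3), so PAR2 and PAR3 moved in opposite directions.

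GPCRs for amines, nucleotides and lipids had 3 higher and 7 lower of 27. LPAR1, the receptor for lysophosphatidic acid, a serum lipid that drives fibroblast contraction and migration, was at 318, 307 and 301 CPM in the control libraries and 102, 88.7 and 81.5 CPM in the RAS libraries. The muscarinic acetylcholine receptor CHRM2 was measured at 128, 144 and 125 CPM in the control libraries and 17.0, 23.3 and 19.1 CPM in the RAS libraries. Every RAS library lay below every control library for both (log2 change −1.77 with SE 0.06, edgeR adjusted p = 8.65e-23, and log2 change −2.74 with SE 0.089, edgeR adjusted p = 3.49e-23). S1PR1, a sphingosine-1-phosphate receptor, fell from 7.19 ± 1.72 to 1.85 ± 0.651 CPM, whereas PTGIR, the prostacyclin receptor, rose from 2.30 ± 0.132 to 10.3 ± 3.09 CPM (SD, n = 3).

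Among 50 orphan, adhesion and Frizzled GPCRs 12 were higher and 9 lower. GPRC5A, a retinoic acid-inducible orphan receptor, had 141, 152 and 148 CPM in the control libraries and 11.8, 9.22 and 8.97 CPM in the RAS libraries. No RAS library came near the lowest control (log2 change −3.88 with SE 0.09, edgeR adjusted p = 2.04e-27; −3.94 with the offset). The Wnt receptors divided: FZD8 rose from 16.9 ± 0.985 to 94.0 ± 5.57 CPM (log2 change 2.47, and 1.82 with the offset) and FZD7 fell from 117 ± 5.80 to 26.3 ± 2.68 CPM (SD, n = 3). Of 5 tested chemokine receptors 2 were higher, and ACKR3, a scavenger of CXCL12, rose from 5.49 ± 0.822 to 13.5 ± 1.91 CPM.

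**Figure D2:**
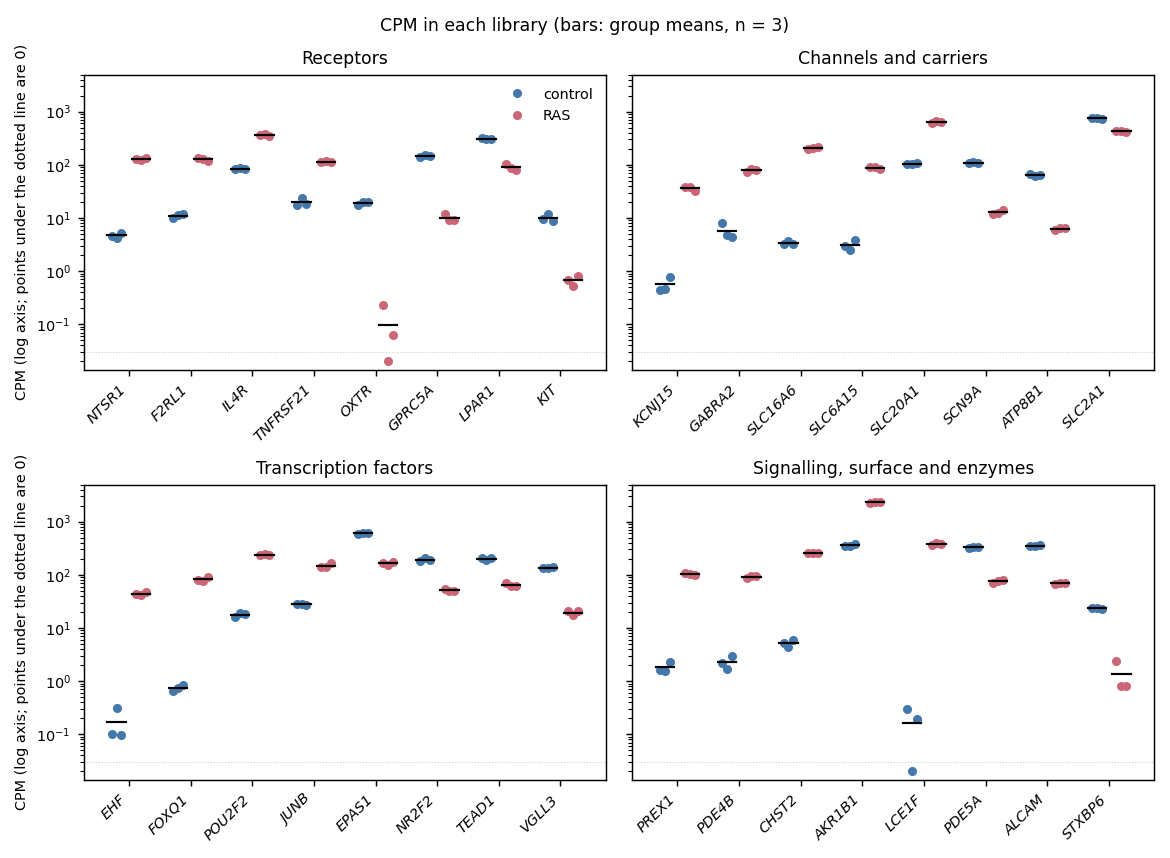
CPM on a log axis in each of the 3 control and 3 RAS libraries for 8 receptors, 8 channels and carriers, 8 transcription factors and 8 genes of signalling, surface and metabolism. Points are libraries, bars are group means and points under the dotted line are 0. The genes drawn were chosen among those whose 2 groups do not overlap.

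Of 35 tested receptor tyrosine kinases, 2 were higher and 7 lower. Without the offset or the fold limit 9 (25.7%) were called higher and 12 (34.3%) lower, near the 31.9% and 32.0% of all genes. With the GC offset 5 (14.3%) were called higher and 16 (45.7%) lower, against 26.5% and 27.3%. MET, the receptor of hepatocyte growth factor, was measured at 60.6, 60.6 and 58.5 CPM in the control libraries and 9.33, 13.4 and 13.6 CPM in the RAS libraries. KIT, the receptor of stem cell factor, was at 9.52, 12.1 and 8.69 CPM in the control libraries and 0.696, 0.528 and 0.804 CPM in the RAS libraries. The losses were about as deep in each RAS library (log2 change −2.31 with SE 0.117, edgeR adjusted p = 6.75e-18, and log2 change −3.89 with SE 0.303, edgeR adjusted p = 4.39e-13). TIE1, an orphan partner of the angiopoietin receptor, rose from 0.398 ± 0.488 to 12.5 ± 2.08 CPM (SD, n = 3; log2 change 4.98, 6.58 without control library 2 and 4.38 without control library 3).

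Receptors of cytokines and of TNF-like ligands changed in both directions. Of 33 tested cytokine receptors 6 were higher and 3 lower, and of 16 TNF receptors 5 were higher and 1 lower. IL4R, shared by interleukin-4 and interleukin-13, was at 82.8, 88.1 and 83.8 CPM in the control libraries and 360, 384 and 354 CPM in the RAS libraries. TNFRSF21, the death receptor DR6, was at 17.8, 24.2 and 18.6 CPM in the control libraries and 113, 117 and 114 CPM in the RAS libraries. Neither gene's groups overlapped (log2 change 2.11 with SE 0.051, edgeR adjusted p = 5.76e-27, and log2 change 2.50 with SE 0.09, edgeR adjusted p = 4.31e-22). TNFRSF1B, the second TNF receptor, rose from 8.93 ± 0.169 to 45.7 ± 4.35 CPM, and FAS, the death receptor of Fas ligand, fell from 50.5 ± 4.16 to 17.2 ± 3.13 CPM (SD, n = 3). IL11RA, which binds interleukin-11, fell from 18.5 ± 2.91 to 9.76 ± 2.22 CPM. Of 13 receptor serine/threonine kinases and co-receptors, 1 was higher and 2 lower: ACVRL1, the receptor ALK1 of BMP9, was measured at 46.2, 52.3 and 50.1 CPM in the control libraries and 274, 238 and 256 CPM in the RAS libraries. Every RAS library was above every control library (log2 change 2.37 with SE 0.062, edgeR adjusted p = 5.98e-26). TGFBR3, the TGF-beta co-receptor betaglycan, fell from 11.9 ± 0.234 to 2.48 ± 0.299 CPM (SD, n = 3).

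Pattern recognition and scavenger receptors had no member higher and 6 of 18 lower by the stricter count. Without the offset or the fold limit 3 were higher and 8 lower, against 31.9% and 32.0% of all genes. With the offset 2 were higher and 9 lower, against 26.5% and 27.3%. The cytosolic RNA sensor RIGI fell from 35.0 ± 2.70 to 13.6 ± 2.24 CPM, the scavenger receptor SCARA3 from 116 ± 5.88 to 48.6 ± 2.87 CPM and the C-type lectin CLEC14A from 65.4 ± 4.33 to 13.6 ± 2.55 CPM (SD, n = 3). Guidance ligands and receptors changed in both directions, with 7 higher and 7 lower of 48. SEMA7A, a membrane-anchored semaphorin, rose from 87.4 ± 2.84 to 435 ± 13.1 CPM, and SEMA6A fell from 24.9 ± 1.31 to 3.39 ± 1.72 CPM. RGMB, a BMP co-receptor, was measured at 356, 372 and 360 CPM in the control libraries and 86.8, 76.7 and 73.4 CPM in the RAS libraries, and the 3 RAS values were all below the control range (log2 change −2.20 with SE 0.055, edgeR adjusted p = 1.98e-26). ROBO4, an endothelial member of the Roundabout receptors, rose from 1.59 ± 0.419 to 31.2 ± 3.30 CPM (SD, n = 3), beside the endothelial marker levels given above, whose part in this result was not tested. Of 13 receptor tyrosine phosphatases 2 were higher and 2 lower: PTPRE rose from 1.54 ± 0.415 to 13.6 ± 0.676 CPM and PTPRB fell from 12.7 ± 2.07 to 0.865 ± 0.412 CPM.

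Nuclear receptors, transcription factors switched by lipids and hormones, had 2 higher and 3 lower of 28. NR2F2, the orphan receptor COUP-TFII, was measured at 185, 203 and 189 CPM in the control libraries and 54.5, 49.5 and 49.3 CPM in the RAS libraries. Its loss was seen in all 3 RAS libraries (log2 change −1.91 with SE 0.063, edgeR adjusted p = 4.09e-23). PPARG, the fatty acid receptor of adipocytes, fell from 22.6 ± 3.43 to 4.52 ± 1.07 CPM, and NR4A3, an immediate-early orphan receptor, rose from 0.790 ± 0.425 to 9.78 ± 2.10 CPM (SD, n = 3). NR1H2, an oxysterol receptor, was called higher in both fits and passed the 1.5-fold limit only without the offset (log2 change 0.74, and 0.21 with it).

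**Figure D3:**
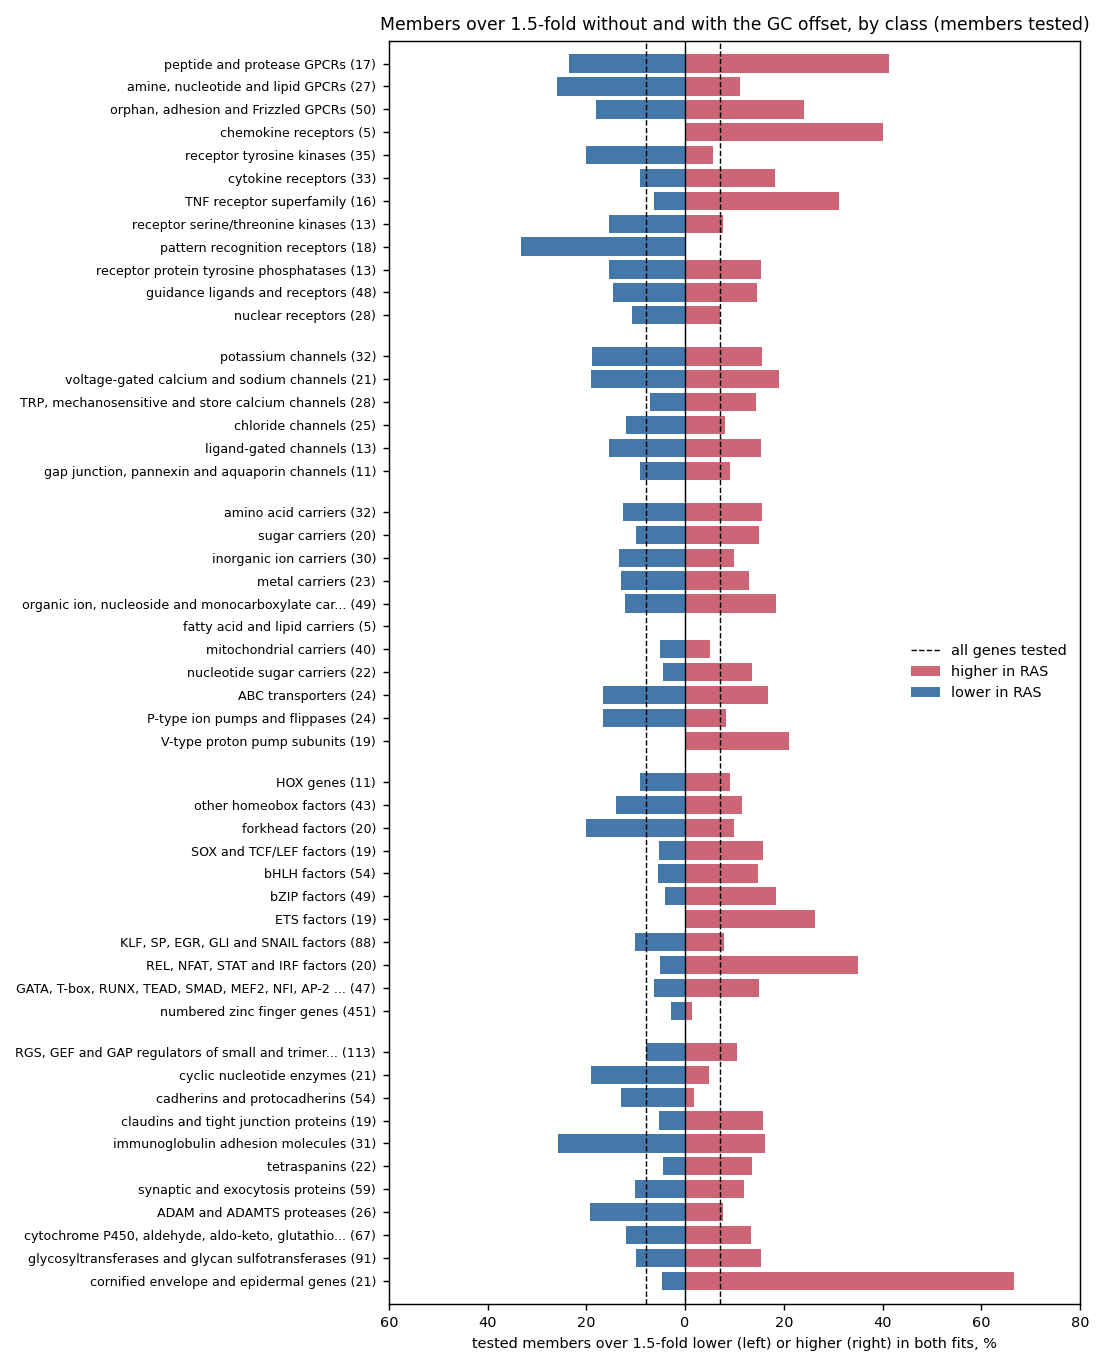
Percentage of tested members of each of the 51 classes that were over 1.5-fold lower (left) or higher (right) in RAS in both fits, with the number tested in parentheses. Dashed lines mark all genes tested, 7.89% lower and 7.12% higher, and the numbered zinc finger genes stay under both lines at 2.88% and 1.33%. The bar of the cornified envelope genes rests on 21 tested genes, 8 of them with under 10 counts in every control library.

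Ion channels gave 18 higher and 18 lower of 130. Potassium channels had 5 higher and 6 lower of 32. KCNJ15, an inward rectifier (chromosome 21, 38155549 to 38307357 in GRCh38), was measured at 0.451, 0.471 and 0.781 CPM in the control libraries and 38.6, 37.9 and 31.8 CPM in the RAS libraries. It was nearly silent in control and present in each RAS library (log2 change 5.97 with SE 0.209, edgeR adjusted p = 2.39e-22; 6.34 with the offset). KCNE1, the accessory subunit of a slow delayed rectifier, was at 14.2, 10.9 and 14.7 CPM in the control libraries and 0.290, 0.705 and 1.11 CPM in the RAS libraries. This was a near loss (log2 change −4.24 with SE 0.302, edgeR adjusted p = 4.61e-14). KCNG1, a silent modifier of Kv2 channels, rose from 4.00 ± 0.296 to 23.2 ± 5.90 CPM, and KCNN4, a calcium-activated channel, from 0.883 ± 0.443 to 5.45 ± 0.813 CPM (SD, n = 3).

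Several voltage-gated sodium channels fell. SCN9A, the sodium channel Nav1.7 of pain-sensing neurons, was at 107, 115 and 108 CPM in the control libraries and 11.9, 12.3 and 14.2 CPM in the RAS libraries. The fall passed the stricter count (log2 change −3.10 with SE 0.089, edgeR adjusted p = 8.3e-25; −2.50 with the offset). SCN2A fell from 8.09 ± 1.28 to 1.73 ± 0.290 CPM (log2 change −2.22, and −1.60 with the offset) and SCN8A from 16.9 ± 0.889 to 6.84 ± 0.329 CPM, while CACNG7, an accessory subunit of calcium channels, rose from 1.71 ± 0.499 to 9.47 ± 2.53 CPM (SD, n = 3). Within this class of 21 tested genes, rho between GC and log2 change was 0.71, and it was 0.63 after the offset.

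Of 28 TRP, mechanosensitive and store-operated calcium channels 4 were higher and 2 lower. TRPA1, which opens to reactive electrophiles, was measured at 40.4, 37.6 and 39.1 CPM in the control libraries and 121, 120 and 125 CPM in the RAS libraries. ITPR3, a receptor that releases calcium from the endoplasmic reticulum, rose from 41.8 ± 4.75 to 122 ± 9.03 CPM (SD, n = 3, log2 change 1.54, and 1.02 with the offset). TPCN1, a calcium and sodium channel of endosomes, rose from 40.4 ± 4.39 to 119 ± 10.3 CPM (log2 change 1.56, and 1.10 with the offset). These 3 rose in every RAS library, while TRPC6 fell from 6.32 ± 0.679 to 2.24 ± 0.900 CPM. Chloride channels had 2 higher and 3 lower of 25. CLIC4, a chloride intracellular channel protein of high level, was at 1007, 1003 and 1017 CPM in the control libraries and 422, 414 and 433 CPM in the RAS libraries. The groups did not overlap (log2 change −1.25 with SE 0.034, edgeR adjusted p = 2.68e-25; −0.66 with the offset). With the offset the fall was 1.58-fold, near the 1.5-fold limit. CLCN7, the chloride and proton exchanger of lysosomes, rose from 62.6 ± 3.40 to 188 ± 5.37 CPM (log2 change 1.58, and 0.98 with the offset), and ANO1, a calcium-activated chloride channel, fell from 14.5 ± 0.139 to 3.29 ± 0.361 CPM.

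Ligand-gated channels had 2 higher and 2 lower of 13. GABRA2, the alpha 2 subunit of the GABA-A receptor, was measured at 8.16, 4.76 and 4.30 CPM in the control libraries and 74.7, 82.4 and 80.6 CPM in the RAS libraries. It was higher in all 3 RAS libraries (log2 change 3.79 with SE 0.138, edgeR adjusted p = 7.44e-22; 4.41 with the offset). Its relative GABRA5 fell from 8.28 ± 0.727 to 1.26 ± 0.465 CPM, and GRIK2, a kainate receptor subunit, from 10.9 ± 0.689 to 2.04 ± 0.745 CPM (SD, n = 3; log2 change −2.41, and −1.79 with the offset). GJB2, the gap junction protein connexin 26, rose from 0.803 ± 0.239 to 7.77 ± 1.49 CPM.

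Carriers and pumps gave 38 higher and 30 lower of 288. Monocarboxylate and organic ion carriers had 9 higher and 6 lower of 49. SLC16A6, a carrier of ketone bodies and other monocarboxylates (chromosome 17, 68267026 to 68291267 in GRCh38), was at 3.21, 3.77 and 3.22 CPM in the control libraries and 201, 208 and 216 CPM in the RAS libraries. Each RAS library was far above the control range (log2 change 5.94 with SE 0.089, edgeR adjusted p = 8.52e-33; 6.33 with the offset). Its relatives SLC16A7 and SLC16A4 fell from 5.40 ± 0.787 to 1.13 ± 0.439 CPM (log2 change −2.25, and −1.63 with the offset) and from 20.6 ± 1.18 to 7.85 ± 0.227 CPM (SD, n = 3). SLCO4A1, an organic anion carrier that takes up thyroid hormone, rose from 0.772 ± 0.287 to 24.5 ± 4.85 CPM, and the urea channel SLC14A1 from 2.94 ± 0.763 to 33.9 ± 2.44 CPM.

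Among 32 amino acid carriers 5 were higher and 4 lower. SLC6A15, a sodium-coupled carrier of branched-chain amino acids and proline, was measured at 3.00, 2.46 and 3.81 CPM in the control libraries and 90.6, 89.5 and 82.2 CPM in the RAS libraries. The rise was seen in each RAS library (log2 change 4.81 with SE 0.124, edgeR adjusted p = 3.71e-26; 5.44 with the offset). SLC7A7, a subunit of a cationic amino acid exchanger, rose from 2.15 ± 0.590 to 12.1 ± 3.39 CPM, and SLC1A4, a carrier of alanine, serine and cysteine, fell from 27.6 ± 3.76 to 11.9 ± 1.23 CPM (SD, n = 3). Of 20 sugar carriers 3 were higher and 2 lower. SLC2A1, the glucose carrier GLUT1, was at 746, 759 and 730 CPM in the control libraries and 433, 432 and 409 CPM in the RAS libraries. It was lower throughout RAS (log2 change −0.81 with SE 0.037, edgeR adjusted p = 3.64e-19; −1.11 with the offset), whereas SLC2A6, a hexose carrier of lysosomes, rose from 29.9 ± 3.75 to 107 ± 7.72 CPM (log2 change 1.84, and 1.21 with the offset).

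Inorganic ion and metal carriers changed in both directions, with 3 higher and 4 lower of 30 and 3 higher and 3 lower of 23. SLC20A1, a sodium-phosphate carrier, was measured at 103, 104 and 108 CPM in the control libraries and 618, 660 and 633 CPM in the RAS libraries. This abundant carrier rose in all 3 RAS libraries (log2 change 2.60 with SE 0.044, edgeR adjusted p = 3.42e-31; 2.92 with the offset). SLC8A1, the sodium-calcium exchanger, fell from 19.5 ± 1.51 to 3.95 ± 0.365 CPM, and the bicarbonate carrier SLC4A4 from 26.9 ± 1.22 to 8.71 ± 0.374 CPM (SD, n = 3). All 6 metal carriers of the stricter count are given. SLC39A14, an importer of iron and zinc, rose from 65.6 ± 3.99 to 240 ± 0.836 CPM and SLC11A2, the iron importer DMT1, from 45.3 ± 3.04 to 92.9 ± 3.45 CPM. SLC39A8, another metal importer, rose from 3.81 ± 0.726 to 11.3 ± 2.6 CPM. SLC40A1, the iron exporter ferroportin, fell from 7.14 ± 1.31 to 1.57 ± 0.751 CPM, and the zinc carriers SLC30A4 and SLC39A11 from 19.8 ± 3.59 to 6.88 ± 1.41 CPM and from 18.9 ± 1.21 to 8.54 ± 1.89 CPM. Of the mitochondrial carriers, SLC25A37, the mitochondrial iron importer mitoferrin 1, rose from 15.9 ± 1.64 to 67.8 ± 4.12 CPM. UCP2, a mitochondrial carrier, was at 89.9, 98.4 and 100 CPM in the control libraries and 17.6, 17.9 and 15.2 CPM in the RAS libraries (log2 change −2.51 with SE 0.089, edgeR adjusted p = 3.39e-22). Mitochondrial carriers as a class had 2 higher and 2 lower of 40 (5.0% each), near the background of 7.12% and 7.89%.

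ABC transporters had 4 higher and 4 lower of 24. ABCG1 and ABCA1, which export cholesterol, rose from 4.72 ± 0.556 to 26.6 ± 1.39 CPM and from 40.4 ± 3.40 to 90.5 ± 2.02 CPM, and ABCB10, a mitochondrial transporter, fell from 12 ± 1.15 to 3.84 ± 1.02 CPM (SD, n = 3). P-type pumps and flippases had 2 higher and 4 lower of 24. ATP8B1, a flippase of the plasma membrane, was measured at 66.6, 62.7 and 65.0 CPM in the control libraries and 5.91, 6.40 and 6.50 CPM in the RAS libraries. It was lower by about the same amount in every RAS library (log2 change −3.37 with SE 0.113, edgeR adjusted p = 8.13e-23). The calcium pump of the endoplasmic reticulum ATP2A3 rose from 4.86 ± 0.846 to 40.0 ± 1.72 CPM (log2 change 3.04, and 2.44 with the offset), and the calcium pump of the plasma membrane ATP2B1 from 42.6 ± 0.337 to 105 ± 4.64 CPM.

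The V-type proton pump, which acidifies lysosomes, was called higher in most of its subunits. Of 19 tested subunits, 12 were higher and 3 lower without the offset, and 14 were higher and 0 lower with it, against 26.5% and 27.3% of all genes. The median log2 change of the class was 0.33, and 0.52 with the offset. By the stricter count 4 were higher and 0 lower. ATP6V0B rose from 101 ± 9.36 to 285 ± 10.9 CPM, ATP6V1B2 from 77.0 ± 1.24 to 164 ± 5.51 CPM and ATP6V0D2, the isoform of osteoclasts and macrophages, from 0.105 ± 0.181 to 7.29 ± 1.11 CPM (SD, n = 3; log2 change 6.08, and 10.05 without control library 2, since the control level rests on 6 counts).

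Transcription factors were the largest block, with 60 higher and 43 lower of 821. ETS factors had 5 higher and 0 lower of 19. EHF, an ETS factor of epithelia (chromosome 11, 34621093 to 34663288 in GRCh38), was measured at 0.100, 0.314 and 0.0976 CPM in the control libraries and 42.9, 42.3 and 47.7 CPM in the RAS libraries. Its control level was near 0, with 10 counts over the 3 libraries (log2 change 7.99 with SE 0.239, edgeR adjusted p = 2.54e-24; 8.36 with the offset; 8.71 without control library 2). ETV4, an ETS factor below the ERK kinases, rose from 21.5 ± 1.32 to 99.0 ± 3.49 CPM, and ERF, an ETS repressor that ERK phosphorylates, from 40.7 ± 2.37 to 111 ± 11.2 CPM (SD, n = 3; log2 change 1.45, and 0.82 with the offset). Forkhead factors had 2 higher and 4 lower of 20. FOXQ1 was at 0.651, 0.733 and 0.830 CPM in the control libraries and 81.0, 75.6 and 92.7 CPM in the RAS libraries. It went from under 1 CPM to over 75 CPM (log2 change 6.80 with SE 0.154, edgeR adjusted p = 1.16e-27; 6.19 with the offset). FOXC2, FOXN3 and FOXL1 fell from 11.7 ± 1.78 to 3.28 ± 0.539 CPM (log2 change −1.83, and −2.44 with the offset), from 115 ± 4.88 to 43.9 ± 3.03 CPM and from 112 ± 6.27 to 54.3 ± 4.38 CPM.

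Homeobox factors outside the HOX clusters had 5 higher and 6 lower of 43. POU2F2, the octamer factor OCT2 of B cells, was measured at 16.2, 19.0 and 18.0 CPM in the control libraries and 235, 244 and 235 CPM in the RAS libraries. The groups were separated by a wide gap (log2 change 3.75 with SE 0.068, edgeR adjusted p = 2.4e-30; 3.31 with the offset). HHEX, a factor of organ development, fell from 9.43 ± 0.380 to 1.74 ± 0.617 CPM (SD, n = 3). Of 11 HOX genes HOXB8 rose from 5.19 ± 0.738 to 14.5 ± 0.839 CPM and HOXB3 fell from 36.6 ± 1.78 to 20.7 ± 1.13 CPM. The class median log2 change was −0.58, and −0.997 with the offset.

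Basic helix-loop-helix factors had 8 higher and 3 lower of 54. EPAS1, the hypoxia factor HIF-2 alpha, was at 583, 618 and 606 CPM in the control libraries and 164, 154 and 173 CPM in the RAS libraries. All RAS values were far under the control values (log2 change −1.88 with SE 0.045, edgeR adjusted p = 6.58e-27; −2.16 with the offset). The Notch targets HEY1 and HES1 rose from 0.304 ± 0.110 to 10.6 ± 2.37 CPM and from 0.706 ± 0.0948 to 7.22 ± 0.883 CPM, and ID2, which blocks these factors, fell from 14.1 ± 0.734 to 4.83 ± 1.25 CPM (SD, n = 3). Basic leucine zipper factors had 9 higher and 2 lower of 49. JUNB, an AP-1 subunit, was measured at 28.1, 28.6 and 26.6 CPM in the control libraries and 140, 139 and 169 CPM in the RAS libraries. It was higher in each RAS library (log2 change 2.43 with SE 0.078, edgeR adjusted p = 2.35e-23; 1.77 with the offset). FOSB, another AP-1 subunit, rose from 0.981 ± 0.426 to 12.4 ± 1.12 CPM. REL, NFAT, STAT and IRF factors had 7 higher and 1 lower of 20. NFATC4 rose from 27.3 ± 2.01 to 77.6 ± 5.21 CPM (log2 change 1.51, and 1.02 with the offset). NFAT5, the factor of osmotic stress, fell from 83.6 ± 5.04 to 32.9 ± 2.99 CPM (log2 change −1.345, and −0.83 with the offset).

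In the mixed class of GATA, T-box, RUNX, TEAD, SMAD, MEF2, NFI, AP-2 and p53 family factors 7 were higher and 3 lower of 47. VGLL3, a cofactor of the TEAD factors, was at 133, 135 and 140 CPM in the control libraries and 20.9, 17.2 and 20.5 CPM in the RAS libraries. TEAD1, the DNA-binding partner, was at 207, 191 and 211 CPM in the control libraries and 71.7, 60.6 and 61.7 CPM in the RAS libraries. Both fell (log2 change −2.80 with SE 0.079, edgeR adjusted p = 6.12e-25, and log2 change −1.65 with SE 0.064, edgeR adjusted p = 4.44e-21). TBX2, a T-box repressor, rose from 120 ± 13.6 to 414 ± 14.6 CPM, TFAP2C from 4.37 ± 0.314 to 42.3 ± 1.04 CPM and SMAD1, a factor of BMP signals, from 3.03 ± 0.589 to 12.6 ± 1.83 CPM, and NFIX fell from 150 ± 4.44 to 62.3 ± 2.67 CPM (SD, n = 3). Among 88 KLF, SP, EGR, GLI and SNAIL zinc finger factors 7 were higher and 9 lower: PRDM1, the repressor BLIMP1, rose from 16.7 ± 2.28 to 55.2 ± 6.64 CPM, and the odd-skipped factors OSR1 and OSR2 fell from 26.3 ± 2.43 to 4.01 ± 0.412 CPM and from 9.96 ± 1.17 to 1.62 ± 0.528 CPM. LEF1 and TCF7, nuclear partners of beta-catenin, rose from 1.56 ± 0.673 to 9.07 ± 2.78 CPM and from 5.90 ± 1.31 to 17.7 ± 2.08 CPM.

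The numbered zinc finger genes, the largest class, had more members lower than higher in both fits, and fewer called with the offset. Of 451 tested, 80 were higher and 146 lower without it, and 46 were higher and 80 lower with it. The median log2 change was −0.38, and −0.18 with the offset. Their median transcript GC was 44.3%, against 47.7% of all genes tested, and rho between GC and log2 change within the class was 0.62. By the stricter count 6 (1.33%) were higher and 13 (2.88%) lower, both under the background. ZNF367 fell from 6.73 ± 0.246 to 0.533 ± 0.319 CPM, and ZNF792 rose from 3.77 ± 0.755 to 19.2 ± 1.18 CPM (SD, n = 3). Many of these genes are near copies of each other, so reads can be split between them.

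**Figure D4:**
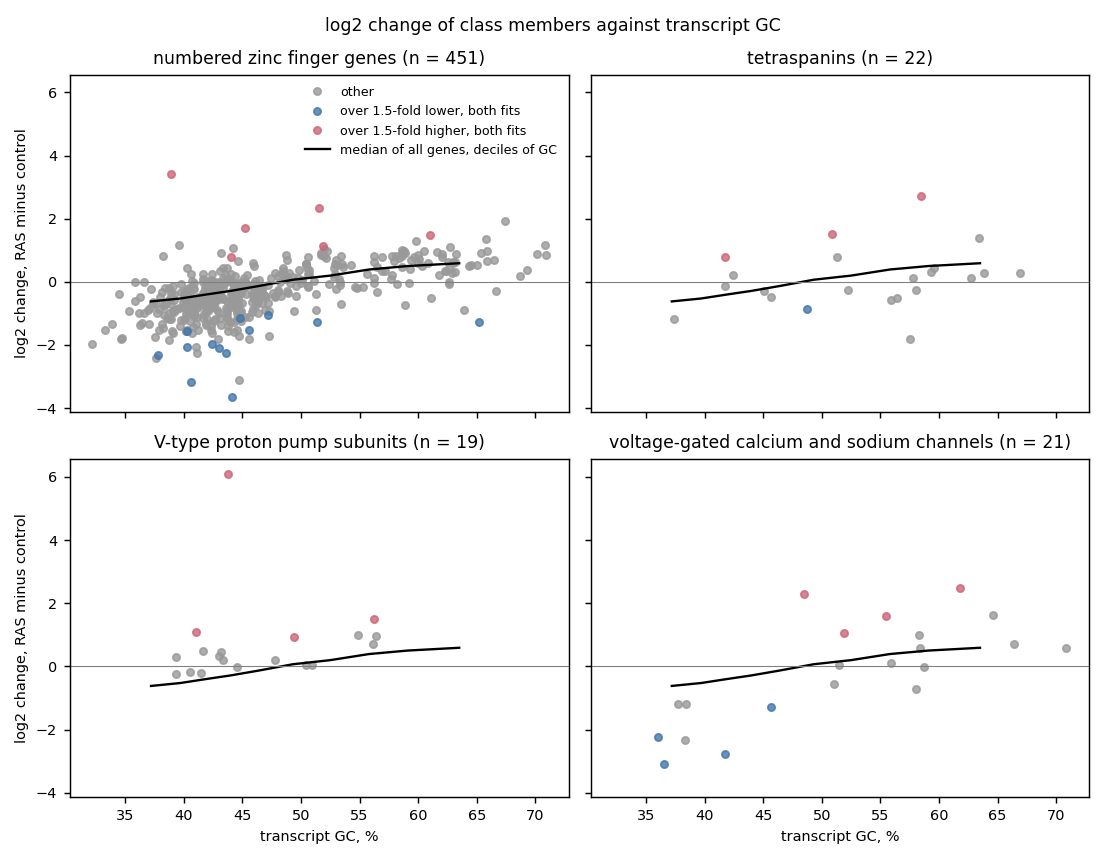
The log2 change (RAS minus control, without the offset) of each tested member of 4 classes against its transcript GC, with the median of all genes in deciles of GC as a line. Zinc finger genes crowd along the line, V-type pump subunits lie mostly above it, and the GC-poor voltage-gated channels lie below it.

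Regulators of G proteins and cyclic nucleotides changed by large amounts in single genes. Of 113 RGS, GEF and GAP proteins 12 were higher and 9 lower, a class whose name pattern also takes in the STARD lipid carriers. PREX1, an exchange factor that activates RAC (chromosome 20, 48624252 to 48827999 in GRCh38), was measured at 1.65, 1.52 and 2.25 CPM in the control libraries and 109, 102 and 99.7 CPM in the RAS libraries. It was low in control, at 33, 29 and 46 counts (log2 change 5.83 with SE 0.123, edgeR adjusted p = 1.66e-28; 5.32 with the offset). ARHGAP29, a GTPase-activating protein, fell from 93.9 ± 2.83 to 16.4 ± 1.01 CPM (log2 change −2.52, and −1.93 with the offset), and RAPGEF2, a RAP exchange factor, from 89.2 ± 4.24 to 23.4 ± 2.78 CPM (SD, n = 3). Cyclic nucleotide enzymes had 1 higher and 4 lower of 21. PDE4B, which degrades cyclic AMP, was at 2.20, 1.73 and 2.93 CPM in the control libraries and 87.5, 95.0 and 96.3 CPM in the RAS libraries. PDE5A, which degrades cyclic GMP, was at 320, 328 and 332 CPM in the control libraries and 68.8, 77.0 and 81.0 CPM in the RAS libraries. They moved in opposite directions (log2 change 5.33 with SE 0.129, edgeR adjusted p = 6.48e-27, and log2 change −2.11 with SE 0.055, edgeR adjusted p = 7.06e-26). With the offset their log2 changes were 5.65 and −1.59. PDE1C fell from 80.7 ± 3.56 to 20 ± 3.67 CPM.

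NRAS, a relative of the introduced gene, was measured at 153, 159 and 164 CPM in the control libraries and 104, 92.8 and 92.7 CPM in the RAS libraries (−0.71 on the log2 scale, −0.15 with the offset). It did not pass the 1.5-fold limit in both fits.

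Adhesion genes changed in both directions. Cadherins and protocadherins had 1 higher and 7 lower of 54: FAT4, a large cadherin of planar polarity, fell from 43.7 ± 3.92 to 12.8 ± 2.56 CPM, PCDH7 from 27.9 ± 3.76 to 5.35 ± 1.79 CPM and the desmosomal DSG2 from 7.07 ± 0.487 to 1.56 ± 0.533 CPM, and PCDH9 rose from 4.49 ± 1.32 to 11.9 ± 1.32 CPM (SD, n = 3; log2 change 1.40, and 2.03 with the offset). Of 31 immunoglobulin adhesion molecules 5 were higher and 8 lower. ALCAM was at 356, 348 and 362 CPM in the control libraries and 68.5, 70.4 and 71.4 CPM in the RAS libraries. ICAM1, the ligand of leukocyte integrins, was at 60.7, 63.0 and 66.2 CPM in the control libraries and 349, 359 and 358 CPM in the RAS libraries. The first fell and the second rose with no overlap (log2 change −2.34 with SE 0.05, edgeR adjusted p = 2.29e-28, and log2 change 2.49 with SE 0.052, edgeR adjusted p = 9.18e-29; −1.75 and 2.09 with the offset). ESAM, an endothelial adhesion molecule, rose from 1.55 ± 0.795 to 13.6 ± 1.45 CPM. Of 19 claudins and tight junction proteins 3 were higher and 1 lower, CLDN11, which fell from 96.9 ± 5.40 to 17.9 ± 2.98 CPM. CLDN7, also an epithelial marker, rose from 2.36 ± 0.66 to 7.5 ± 1.74 CPM (log2 change 1.67, and 1.14 with the offset). CD82, a tetraspanin that restrains cell movement, was measured at 55.6, 48.2 and 51.0 CPM in the control libraries and 337, 334 and 346 CPM in the RAS libraries (log2 change 2.72 with SE 0.056, edgeR adjusted p = 7.53e-29; 2.20 with the offset).

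Among 59 synaptic and exocytosis proteins 7 were higher and 6 lower. CADPS, a priming factor of dense-core vesicles, rose from 0.271 ± 0.136 to 12.2 ± 0.546 CPM, and RAB3A, a GTPase of regulated secretion, from 6.36 ± 1.32 to 37.8 ± 1.81 CPM (SD, n = 3). STXBP6, which binds the fusion machinery, was at 24.0, 24.0 and 22.8 CPM in the control libraries and 2.43, 0.822 and 0.804 CPM in the RAS libraries, lower in each RAS library (log2 change −4.11 with SE 0.243, edgeR adjusted p = 4.33e-16; −4.84 without RAS library 1), and SYTL2 fell from 70.7 ± 1.52 to 11.7 ± 2.41 CPM. Of 26 ADAM and ADAMTS proteases 2 were higher and 5 lower: ADAM19 rose from 451 ± 7.51 to 932 ± 27.6 CPM and ADAMTS6 fell from 11.8 ± 1.28 to 1.93 ± 0.614 CPM.

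Enzymes of retinoid, sugar and glycan metabolism changed in both directions. AKR1B1, aldose reductase, was measured at 356, 344 and 380 CPM in the control libraries and 2278, 2369 and 2322 CPM in the RAS libraries. It rose in each RAS library (log2 change 2.69 with SE 0.034, edgeR adjusted p = 1.03e-34; 2.38 with the offset). CYP2S1, a cytochrome P450, rose from 30.8 ± 3.03 to 128 ± 2.91 CPM. RDH10 and DHRS3, which interconvert retinol and retinal, fell from 78.2 ± 4.35 to 19.3 ± 2.37 CPM and from 37.5 ± 3.14 to 11.1 ± 0.315 CPM (SD, n = 3). The class that holds them had 9 higher and 8 lower of 67. Glycosyltransferases and glycan sulfotransferases had 14 higher and 9 lower of 91. CHST2, which sulfates N-acetylglucosamine, was at 5.21, 4.45 and 5.86 CPM in the control libraries and 254, 256 and 255 CPM in the RAS libraries. It differed between libraries of a group by little beside the change (log2 change 5.62 with SE 0.081, edgeR adjusted p = 3.04e-33; 5.13 with the offset). CHST11, a chondroitin sulfotransferase, rose from 2.6 ± 0.745 to 36.7 ± 2.49 CPM, HAS2, a hyaluronan synthase, from 11.3 ± 0.349 to 56.9 ± 5.81 CPM, and GALNT15, which starts O-linked chains, fell from 37.4 ± 2.38 to 2.96 ± 0.471 CPM.

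The cornified envelope and epidermal genes, which build the outer layer of skin, had 75 genes with an identifier. Of these 35 had no count, 19 fell below the filter and 21 were tested, and 14 of the tested genes were higher and 1 lower. For 8 of the 14 every control library held under 10 counts, so they were tested only through the RAS libraries and the count is a description of these genes alone. LCE1F was measured at 0.300, 0 and 0.195 CPM in the control libraries and 365, 390 and 373 CPM in the RAS libraries (log2 change 11.07, and 11.76 without control library 1, since the control level rests on 10 counts). LCE2D and PI3, an elastase inhibitor, had no count in control and means of 14.0 and 11.9 CPM in RAS, at least 278-fold and 235-fold higher, taking the 3 control libraries together at a limit of 3 counts. The late cornified envelope genes lie together on chromosome 1 and are near copies of each other, so the split of reads between them is uncertain. Keratins KRT5 and KRT14 of the same tissue had no count in RAS.

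**Figure D5:**
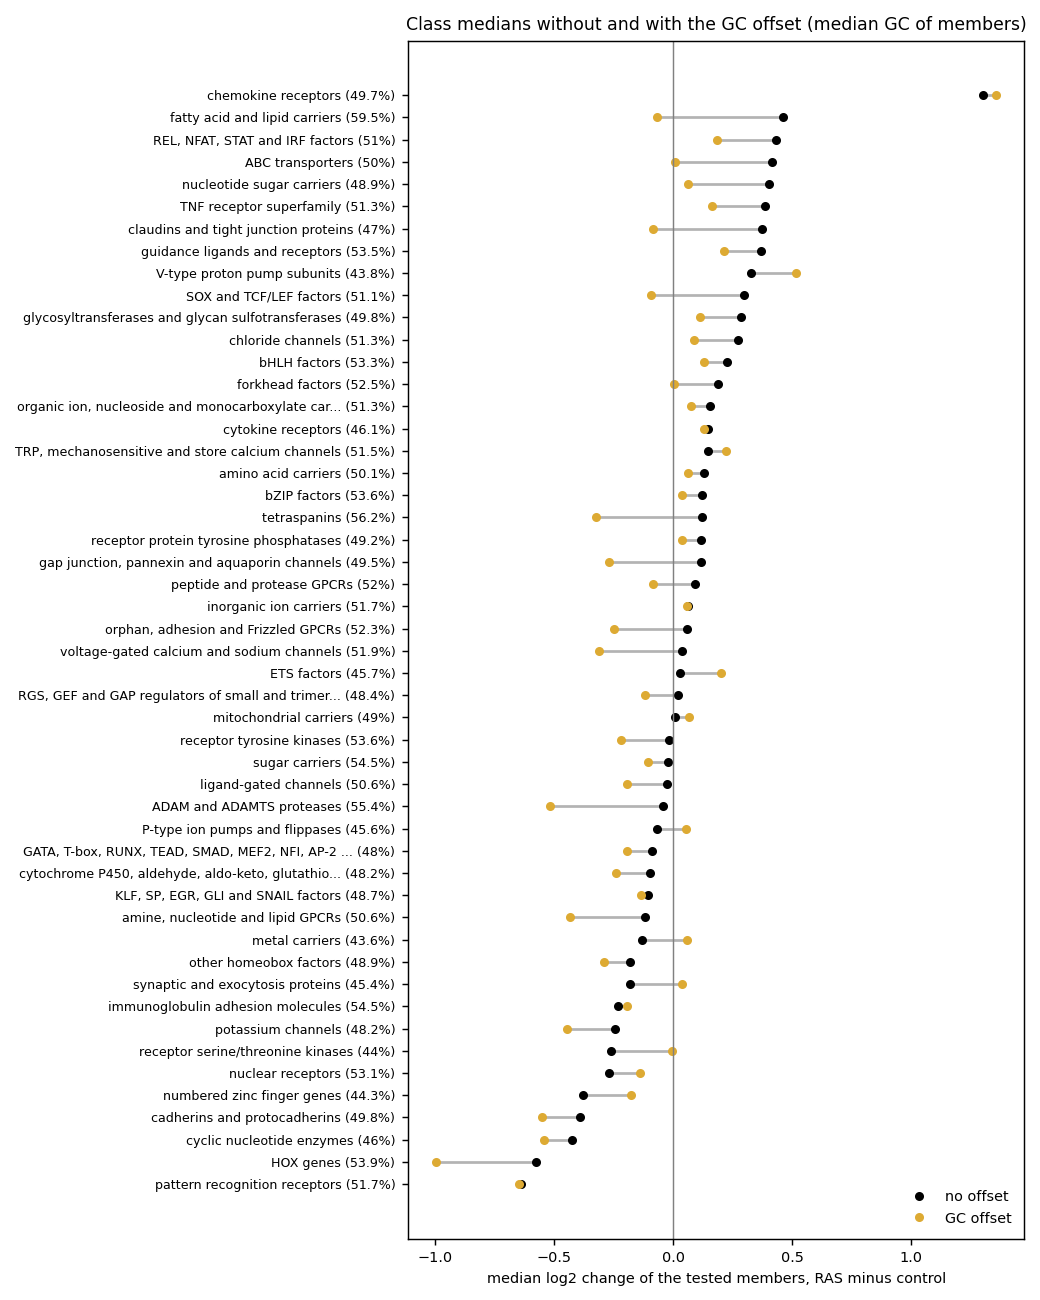
Median log2 change (RAS minus control) of the tested members of 50 classes in the fit without an offset (black) and with the GC offset (yellow), with the median transcript GC of the members in parentheses and the cornified envelope class left out. Tetraspanins and ADAM proteases move to lower values with the offset, and V-type pump subunits and metal carriers to higher ones.

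In 8 classes the larger of the 2 counts changed sides with the offset: receptor tyrosine phosphatases, nuclear receptors, voltage-gated calcium and sodium channels, chloride channels, inorganic ion carriers, forkhead factors, immunoglobulin adhesion molecules and tetraspanins. Tetraspanins went from 11 higher and 6 lower to 6 higher and 11 lower. Of all class members, 43 were called in opposite directions by the 2 fits. Those of highest CPM were GC-rich and rose by small amounts without the offset, among them the tetraspanins CD63 (0.12, and −0.38 with the offset), CD81 (0.28 and −0.35) and CD151 (0.12 and −0.48), the glutathione transferase GSTP1 (0.31 and −0.29), the chloride channel TTYH3 (0.51 and −0.15), the phosphatase PTPRF (0.28 and −0.24) and the adhesion molecule NECTIN2 (0.17 and −0.41), all as log2 changes. VIM, the fibroblast intermediate filament protein, did the same (0.08 and −0.08). Without the offset VIM lost its call when RAS library 3 (log2 change 0.060), control library 1 (0.055) or control library 2 (0.066) was left out, and CD151 when RAS library 3 (0.060), control library 2 (0.106) or control library 3 (0.110) was left out. The direction of these genes depended on the offset.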

How the data were processed

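RNA from IMR90 cells was oligo(dT)-enriched, prepared with a NEBNext Ultra kit and sequenced in pairs on a NovaSeq. The authors aligned the reads with STAR (2.6.1 in the submitters' processing notes) to GRCh38 and deposited raw counts per Ensembl gene for each library, and the counting strand and annotation release are not given in the sources used here. Without a stated strand, overlapping genes cannot be told apart.

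The deposited counts of the 3 control and 3 RAS libraries (17354579 to 19181783 per library) were fitted with edgeR 4.0.16 in R 4.3.3. Genes passed filterByExpr, libraries were scaled by TMM, and the quasi-likelihood F test was used with Benjamini-Hochberg adjustment and a threshold of 0.05. Reported CPM use the TMM scaling, and with 3 libraries in each group only differences beyond their spread are called. Of 48162 identifiers 45038 matched a symbol in GENCODE 44. A second fit added an offset for each library, its trend over 20 bins of merged-exon GC. The 1.5-fold limit was tested with glmTreat in both fits. The procedure was tested on simulated data. Replicates 1 to 3 share only numbers, since none of the 3 same-numbered pairs deviated together, and no 2 libraries of a group agreed within sampling noise.

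Classes were set by gene symbol among protein-coding genes. The members and lists were chosen with earlier results of these data known. Named genes were, for each class, up to 3 largest rises and 3 largest falls among genes over 1.5-fold in both fits with no overlap between groups and a mean of at least 5 CPM in the higher group, some of which are not reported here. HRAS and NRAS, the cell type markers, up to 6 genes of highest CPM called in opposite directions and the leading members of classes that changed sides were added. Motifs were searched in RefSeq promoters. Alternatives were DESeq2 1.42.0, limma-voom (limma 3.58.1), other scalings and filters, a fit over all 12 libraries, GC of the longest transcript, a length offset, a replicate block and leaving out each library.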

Additional observations from a re-analysis of the deposited data

How the results depend on the processing

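Of 986 numbers of genes or class members called under the other settings, 972 stayed within 1.5 times the reported number, which says nothing of direction. The median log2 change of 51 classes changed sign in 12 with the GC offset, 14 with GC and length, 16 with library size only and 1 with DESeq2 size factors. Genes called higher and lower, 4327 and 4343, became 4452 and 4207 with DESeq2 size factors, 3256 and 5572 with library size only (36.9% of calls higher against 49.9%, with the median of all genes at −0.24 against −0.04), 4396 and 4135 with the DESeq2 test, and 4386 and 4429 with limma-voom. Leaving out each library gave 4054 to 4274 higher and 3920 to 4243 lower. The replicate block gave 4211 higher and 4224 lower. The same-numbered pairs correlated at 0.003, −0.0002 and −0.014, 1 of 6 libraries correlated best with its own number, and the block alone changed no call named in the text. Members called in the receptor serine/threonine kinases, 11, became 6 with the GC offset, 7 with GC and length, 7 with the GC of the longest transcript and 6 with the replicate block and GC offset. For ABC transporters 23 became 15, 15, 15 and 14 under the same alternatives, and for numbered zinc finger genes 226 became 126, 127, 129 and 116. Ligand-gated channels went from 8 to between 4 and 8 when each library was left out, the lowest without RAS library 3 and 5 without control library 3. The cause was not tested.

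Of the single genes, 8 reversed. In the order GC offset, GC and length, longest transcript, replicate block with GC offset, the log2 changes were −0.48, −0.492, −0.482 and −0.482 for CD151, −0.375, −0.44, −0.222 and −0.375 for CD63, −0.35, −0.338, −0.36 and −0.35 for CD81, −0.288, −0.326, −0.286 and −0.288 for GSTP1, −0.405, −0.424, −0.382 and −0.405 for NECTIN2, −0.242, −0.207, −0.22 and −0.241 for PTPRF, and −0.148, −0.174, −0.13 and −0.149 for TTYH3. VIM reversed at −0.084 with the GC offset, −0.072 with GC and length and −0.083 with the replicate block and GC offset. With library size only, CD151 reversed at −0.081, CD63 at −0.075, NECTIN2 at −0.03 and VIM at −0.12. PTPRF lost its call with library size only (log2 change 0.08), and VIM (0.079) and CD151 (0.118) in the fit over all 12 libraries. The counts limit genes at a few counts in a group, such as OXTR and LCE1F, to a direction.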
